A study of Mus musculus with 24 samples.

Results

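H3K27me3, the trimethyl mark on lysine 27 of histone H3, was mapped by chromatin immunoprecipitation and sequencing (ChIP-seq) in 4 mouse small cell lung cancer lines, and the 4 resulting peak lists out of the 24 samples of the series are described here. Lines 236L and 236R carry an sgRNA against Kdm6a (sgKDM6A, mutant lines), and lines 159-1 and 1014 carry a control sgRNA (sgCTRL, control lines). All 4 lines were cultured at early passage from tumours of RPP mice, a model engineered for loss of Rb1, Trp53 and Rbl2, and the control lines share these 3 lesions with the mutant lines. Cells grew in HITES medium in ultra-low attachment plates. Each line is 1 culture, the numbers of 236L and 236R share their digits, and the labels do not say whether these 2 came from separate animals. A permutation test over 2 lines against 2 cannot give a p below 0.333. Such a p ranks a difference among the ways to divide these 4 cultures into 2 groups, and it speaks for these cultures only.

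H3K27me3 is placed by Polycomb repressive complex 2 (PRC2) and is typical of silent developmental genes, where it can spread over broad domains. KDM6A (UTX) is a demethylase that removes it, and is also a subunit of the MLL3 and MLL4 complexes that methylate H3K4 at enhancers. Most small cell lung cancers are neuroendocrine, and the study is titled as one on KDM6A and subtype plasticity in this cancer. The comparison asks where the mark that KDM6A removes differs between lines with and without the mutation.

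Each list holds broad peaks, and the length under merged peaks was used in 3 ways. A 1 kb bin of the genome was called marked where peaks cover at least 50% of it. For each of 21887 protein-coding genes, the kb under peaks were summed over the gene body plus 10 kb at either side (its window). A gene was called more or less in the mutant lines where both lines of one group stood above both of the other, with a gap of 2 kb or more between the groups. The lists differ strongly in length, so each was also trimmed, strongest peaks first by the authors' −log10 p, to the 13.8 Mb of the shortest list (equal length, as opposed to full length). Peak lists carry no read counts, so depth is unknown, and the length of a list cannot be told apart from the depth of its library. Single genes were not tested, and every call below is a separation of 2 lines from 2.

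Both mutant lines had less of the genome under H3K27me3 peaks than both control lines. The list of 236L held 10039 peaks and that of 236R 25230, against 31655 in 159-1 and 52080 in 1014. Merged peaks covered 13.8 Mb in 236L and 30.5 Mb in 236R, against 45.4 Mb in 159-1 and 110.3 Mb in 1014. The groups did not overlap, but the 2 lines within each group differed by more than 2-fold. Cover averaged 22.2 ± 11.9 Mb in mutant lines and 77.8 ± 45.9 Mb in control lines (SD, n = 2 each), a difference of -55.7 Mb with an exact two-sided permutation p of 0.333, the smallest this design allows. Wide peaks were also scarcer: peaks of 10 kb or more held 5.17% of the cover in 236L and 4.38% in 236R, against 9.75% in 159-1 and 27.1% in 1014. The widest peak measured 58.3 kb in 236L and 34.1 kb in 236R, against 72.5 kb in 159-1 and 186 kb in 1014. The median enrichment over background that the authors deposited was 3.38-fold in 236L and 3.19-fold in 236R, against 3.33-fold in 159-1 and 3.004-fold in 1014, so the groups overlapped in this measure.

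**Figure D1:**
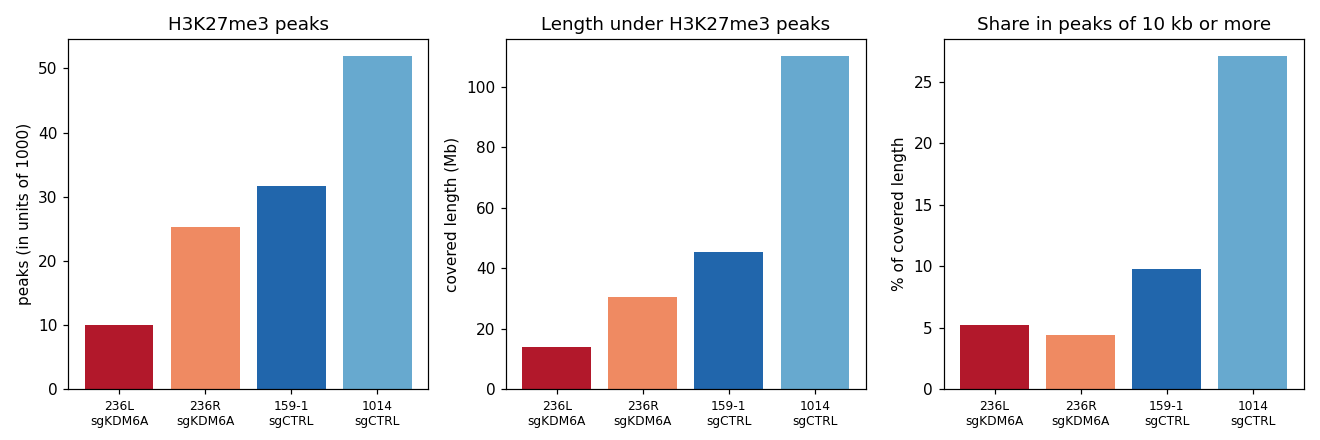
Bars give, for each line, the number of H3K27me3 peaks, the length under merged peaks in Mb and the percent of that length in peaks of 10 kb or more. The mutant lines 236L and 236R lie below the control lines 159-1 and 1014 in all 3 panels, and 1014 stands far above the other lines.

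Trimming makes the lists equally long but not alike in kind. At equal length the list of 236L kept 100% of its peaks and that of 236R 28.4%, against 14.1% in 159-1 and 1.88% in 1014, where the 979 peaks left had a mean width of 14.1 kb. Trimmed control lists are therefore rich in wide domains and poor in the short peaks that fill the list of 236L. Full length favours a call of less in the mutant lines, and equal length removes short control peaks. Genes called at both lengths therefore get most room here.

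Line 236L stood apart from the other 3 in where its H3K27me3 lay. Of its marked bins, 39.8% were also under H3K4me2, a mark of promoters and enhancers in use, in the same line, against 11.7% in 236R, 5.45% in 159-1 and 4.54% in 1014. The marked bins of 236L lay under the H3K4me2 of the other lines to a like extent: 44.3% under that of 236R, 36.3% of 159-1 and 35.5% of 1014. The overlap was thus with H3K4me2 sites common to the lines. Within 2.5 kb of either end of a gene lay 49.9% of the H3K27me3 bins of 236L, against 25.1% in 236R, 21.1% in 159-1 and 16.7% in 1014. The deposited names of the 2 control H3K4me2 lists name the other line than the sample labels do, and values here follow the labels. This leaves the comparison of genotypes as it is, but H3K4me2 values for 159-1 or 1014 alone, or without either, depend on the choice. Chromosome 19 held 3.15% of the H3K4me2 cover in 159-1 and 2.17% in 1014. The shares were 1.14% and 2.80% for H3K4me1, and 0.541% and 4.03% for H3K27me3. Which assignment is right was not tested. Of 12 neuroendocrine markers, 9 held an H3K27me3 peak in 236L and 0 in 236R, against 0 in 159-1 and 1 in 1014. Of all 21887 genes, 4616 held a peak in 236L and 5161 in 236R, against 4562 in 159-1 and 6859 in 1014. Insm1, a neuroendocrine zinc finger factor, had 6.54 kb in 236L and 0 kb in 236R, against 0 kb in both control lines. The same held for the lung lineage factors Foxa2 with 7.93 kb and Nkx2-1 with 6.09 kb, for the Notch ligand Dll3 with 3.42 kb and for the adhesion molecule Ncam1 with 3.53 kb, all at 0 kb in the other 3 lines. Over the 12 neuroendocrine markers H3K27me3 covered on average 11.4% of the window in 236L and 0% in 236R, against 0% in 159-1 and 0.147% in 1014. H3K4me2 was still present at these 12 genes in every line, with a mean of 22.7% in 236L and 33.5% in 236R, against 33.1% in 159-1 and 36.4% in 1014.

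**Figure D2:**
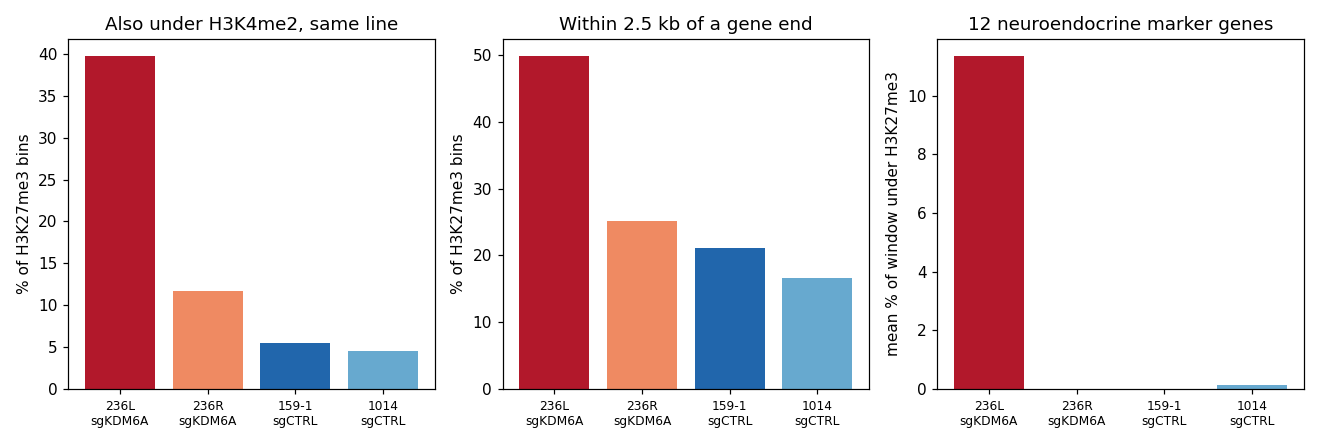
Bars give, per line, the percent of H3K27me3 bins also under H3K4me2 of that line, the percent within 2.5 kb of a gene end, and the mean percent of the window under H3K27me3 at 12 neuroendocrine marker genes. Line 236L is the highest in each panel, and the other 3 lines lie closer to one another.

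Macrophage genes also set 236L apart. Spi1, the myeloid transcription factor PU.1, had no H3K27me3 in 236L and 14.3 kb in 236R, against 10.5 kb in 159-1 and 11.0 kb in 1014. Its H3K4me2 was 21.8 kb in 236L and 3.55 kb in 236R, against 4.61 kb in 159-1 and 3.83 kb in 1014. H3K27me3 was on average 0% of the window over the 6 macrophage markers in 236L and 11.6% in 236R, against 7.37% in 159-1 and 11.4% in 1014. H3K4me2 over the same 6 covered 30.0% in 236L and 7.30% in 236R, against 10.9% in 159-1 and 11.6% in 1014. The lymphoid, fibroblast and endothelial lists held H3K27me3 in all 4 lines, but 236L was lowest in the first 2. Its lymphoid mean was 6.83%, against 17.0% in 236R, 12.4% in 159-1 and 25.6% in 1014. Its fibroblast mean was 4.75%, against 16.2% in 236R, 16.3% in 159-1 and 25.7% in 1014. The endothelial mean was 5.16% in 236L and 3.96% in 236R, against 17.6% in 159-1 and 24.7% in 1014. Of these lists only the lymphoid had its highest H3K4me2 in 236L, with 10.2%, against 3.68% in 236R, 8.35% in 159-1 and 6.66% in 1014. The part of these cell types in the results was not tested. A peak list pools all cells of a culture, so fewer marked cells and less mark per cell cannot be told apart. Results are therefore given with and without 236L where its values decide them.

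The lines also differed in the share of their cover on chromosomes X and 19. Whether they differ in sex chromosomes or copy number was not tested. Chromosome X held 1.28% of the H3K27me3 cover in 236L and 3.85% in 236R, against 0.132% in 159-1 and 0.230% in 1014. Only 2 of the 53 genes called more at both lengths, Bcor and Nhsl2, lie on it, and their difference cannot be told apart from one in sex chromosomes. Chromosome 19 held 3.81% of the cover in 236L and 4.48% in 236R, against 0.541% in 159-1 and 4.03% in 1014, and 2 of its 705 genes were called less at full length. The Kdm6a gene itself held at most 1.09 kb of H3K27me3 in a line, and a peak list gives no check of the mutation.

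At 1 kb resolution the 2 mutant lines shared fewer bins with each other than the 2 control lines did. At full length 3671 bins were marked in all 4 lines, 488 in both mutant lines and neither control line, and 19456 in both control lines and neither mutant line. At equal length these numbers were 2073, 889 and 2022. At equal length 236L and 236R shared 3978 bins, which were 30.8% of those of 236L and 30.2% of those of 236R. Each mutant line shared between 29.0 and 35.9% with a control line, by either list, while 159-1 and 1014 shared 6177 bins, or 45.9% and 44.9% of theirs. With all 4 lines, bins of the mutant lines alone were fewer than bins of the control lines alone at either length, but without 236L and at the length of 236R there were 14347 of the first and 6984 of the second.

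With all 4 lines, more genes had less H3K27me3 in both mutant lines than had more. At full length 1407 of 21887 genes (6.43%) had at least 2 kb less in both mutant lines and 93 genes (0.425%) had at least 2 kb more. All of these lie among the 6024 genes with at least 2 kb of H3K27me3 in a line. No line had a peak in the windows of 12253 genes at full length and 15777 at equal length. Such genes could not be called, and they lower each share over all genes given below. At equal length the counts were 318 genes (1.45%) with less and 192 (0.877%) with more. Both lengths agreed on 293 genes (1.34%) with less, at 237 separate loci, and on 53 genes (0.242%) with more, at 38 loci. Of the 53, 26 had no H3K27me3 peak in either control line at full length, and of the 293, 17 had none in either mutant line. The counts rest on single lines to a large degree. Without 236L the full-length counts were 1529 less and 465 more, without 236R they were 2203 and 880, without 159-1 they were 3698 and 103, and without 1014 they were 1558 and 219. Without 236L and with the control lists trimmed to the length of 236R, an alternative added after seeing the data, the direction turned, with 672 genes less and 1148 more.

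Among genes with less H3K27me3 were many developmental transcription factor genes. In the Hoxd cluster, which patterns the limbs and the body axis, all 9 genes were lower in both mutant lines at full and at equal length, where 6.43% and 1.45% of all genes were, and they share overlapping windows and so count as 1 locus. H3K27me3 covered on average 37.2% of the Hoxd windows in 236L and 62.4% in 236R, against 85.9% in 159-1 and 99.3% in 1014. Hoxd13, the distal limb gene, had 9.52 kb in 236L and 13.7 kb in 236R, against 21.4 kb in 159-1 and 23.4 kb in 1014, which is its whole window. Hoxd3, at the other end, had 17.1 kb in 236L and 40.01 kb in 236R, against 49.0 kb in 159-1 and 56.3 kb in 1014. Neighbouring Evx2, a homeobox gene of the same cluster end as Hoxd13, had 8.56 kb in 236L and 16.3 kb in 236R, against 24.6 kb in 159-1 and 28.5 kb in 1014. The count of 9 Hoxd genes was the same when any of the 4 lines was left out.

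The 4 Hox clusters did not move together. Hoxa and Hoxc stayed under broad H3K27me3 in all 4 lines: the mean share of the window was 73.7% for Hoxa in 236L and 91.5% in 236R, against 91.9% in 159-1 and 99.7% in 1014, and 77.5% for Hoxc in 236L and 94.2% in 236R, against 96.8% in 159-1 and 100% in 1014. Of their 11 and 9 genes, 1 and 0 were called less at full length and 1 and 3 at equal length. Hoxb went the other way, with 7 of 10 genes higher in both mutant lines at full length and 5 of 10 at equal length, and none lower at either. Over all genes 0.425% and 0.877% were higher. The windows of the 10 Hoxb genes overlap and form 2 loci, so these calls are not separate observations. Hoxb8 had 22.7 kb in 236L and 8.09 kb in 236R, against 1.99 kb in 159-1 and 1.62 kb in 1014. Hoxb3 had 51.0 kb in 236L and 7.88 kb in 236R, against 0 kb in both control lines. At each of the 7 genes 236R held less than 236L, and Hoxb13, which lies apart from the rest of the cluster, held 18.8 kb in each mutant line, against 20.5 kb in 159-1 and 22.3 kb in 1014. Without 236L, 7 Hoxb genes were called more at full length, from 236R alone against both control lines. At the stricter peak threshold of q up to 0.001, 0 Hoxb genes were called more and 1 less.

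Outside the Hox clusters, 34 of 73 other homeobox genes (46.6%) were lower in both mutant lines at full length and 27 (37.0%) at equal length. In the same list 1 and 2 were higher. Over all genes, 6.43% and 1.45% were lower, and 0.425% and 0.877% were higher. Among 72 other developmental transcription factor genes, 30 (41.7%) were lower at full length and 24 (33.3%) at equal length, with 1 and 4 higher. The median change of window cover was -24.9 percentage points over the homeobox genes and -19.4 over the others at full length, beside 0 over all genes and -1.08 over the 9634 genes with any cover. Pitx1, a hindlimb and pituitary homeobox gene, had 13.9 kb in 236L and 15.9 kb in 236R, against 30.7 kb in 159-1 and 31.1 kb in 1014, and trimming left these values almost as they were. Dlx1, a homeobox gene of forebrain interneurons, had 1.62 kb in 236L and 10.7 kb in 236R, against 17.7 kb in 159-1 and 21.3 kb in 1014. Pax6, a regulator of eye and neuroendocrine pancreas, fell unevenly, with 19.1 kb in 236L and 1.89 kb in 236R, against 32.1 kb in 159-1 and 34.4 kb in 1014. Twist1, a mesenchymal basic helix-loop-helix factor, had 5.25 kb in 236L and 6.83 kb in 236R, against 16.6 kb in 159-1 and 19.7 kb in 1014. Runx2, the osteoblast factor, had 0 kb in 236L and 11.0 kb in 236R, against 63.2 kb in 159-1 and 143 kb in 1014. Both homeobox and other developmental genes were called less at full length in 30 or more cases whichever line was left out. The count over all genes was then 1529 to 3698, beside 1407 with all 4 lines.

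**Figure D3:**
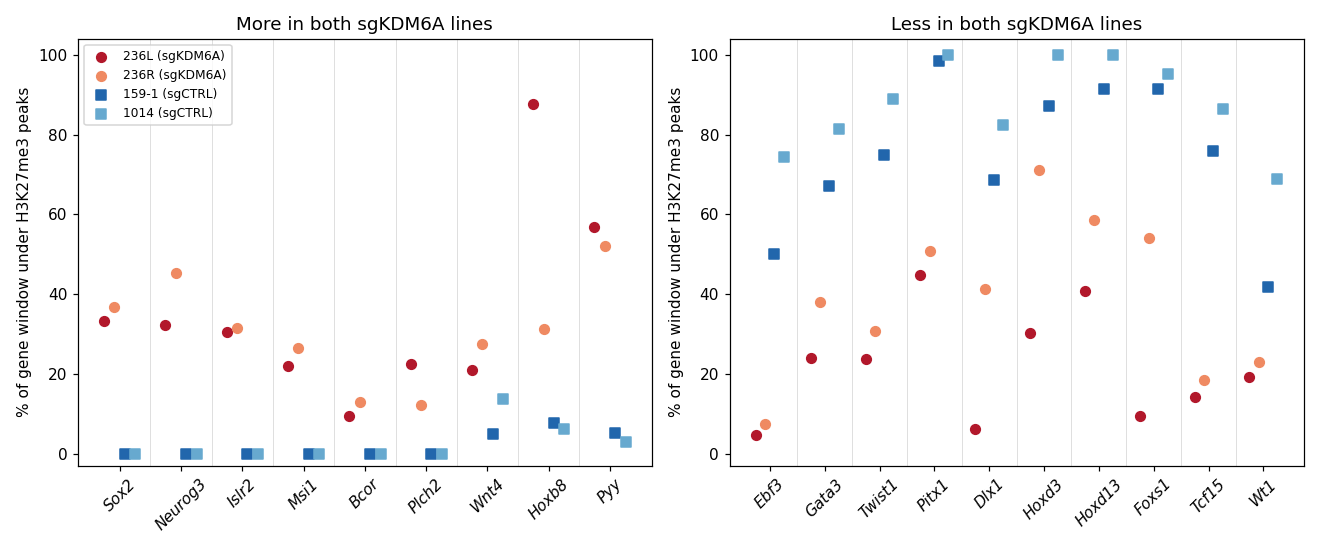
Points give the percent of each gene's window under H3K27me3 peaks at full length in the mutant lines 236L and 236R (circles) and the control lines 159-1 and 1014 (squares). The left panel holds genes with more in both mutant lines, 6 of which were at 0 in both control lines, and the right panel genes with less, where each mutant line lies below each control line.

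Gata3 and Ebf3 lacked the mark at the promoter itself in both mutant lines. Gata3, a zinc finger factor of T cell and breast development, had 12.1 kb in 236L and 19.4 kb in 236R, against 34.2 kb in 159-1 and 41.5 kb in 1014. Ebf3, a neuronal and mesodermal factor, had 6.94 kb in 236L and 11.1 kb in 236R, against 74.5 kb in 159-1 and 111 kb in 1014. Their promoters (250 bases before to 50 after the start, RefSeq, GRCm38.p6) were free of H3K27me3 peaks in both mutant lines and wholly under them in both control lines, at either length. The sequences are shown 5′ to 3′ on the gene's strand, with every CG dinucleotide in capitals, because PRC2 targets are commonly rich in CG.
Gata3, chr2:9878551-9878850, minus strand: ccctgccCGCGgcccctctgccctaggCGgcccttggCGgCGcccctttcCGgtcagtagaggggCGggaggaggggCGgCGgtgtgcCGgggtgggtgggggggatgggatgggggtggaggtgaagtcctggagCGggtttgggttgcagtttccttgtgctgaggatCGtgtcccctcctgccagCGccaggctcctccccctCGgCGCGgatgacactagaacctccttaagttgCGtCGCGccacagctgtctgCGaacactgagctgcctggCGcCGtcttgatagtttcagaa
Ebf3, chr7:137314396-137314695, minus strand: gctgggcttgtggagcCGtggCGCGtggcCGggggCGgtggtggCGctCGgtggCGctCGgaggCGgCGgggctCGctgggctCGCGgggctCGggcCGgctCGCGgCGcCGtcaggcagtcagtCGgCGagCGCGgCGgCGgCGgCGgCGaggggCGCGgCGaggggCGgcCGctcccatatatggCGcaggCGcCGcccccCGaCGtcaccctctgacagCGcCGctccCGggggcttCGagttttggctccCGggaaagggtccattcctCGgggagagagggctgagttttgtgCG
The Ebf3 promoter holds 46 CG dinucleotides, more than 98.0% of the 17492 promoters matched, and the Gata3 promoter 22. A CG occurs in 94.8% of all these promoters, with a median of 13.

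The largest differences in kb were at long genes. Slit3, a secreted axon guidance ligand, had 8.81 kb in 236L and 65.8 kb in 236R, against 218 kb in 159-1 and 372 kb in 1014. Gli2, a transcription factor of Hedgehog signalling, had 3.62 kb in 236L and 7.13 kb in 236R, against 124 kb in 159-1 and 194 kb in 1014. Cacna1d, a voltage-gated calcium channel, had 0 kb in 236L and 4.79 kb in 236R, against 121 kb in 159-1 and 227 kb in 1014. Of these, Gli2 and Cacna1d were also less at equal length and Slit3 was not. Csmd2, Grik3, Shank2 and Pde11a, also among the 10 largest such differences, were likewise not called at equal length, while Hydin, Creb5 and Samd4 were. Smaller genes were among the largest differences by percent of the window. Tcf15, a mesodermal helix-loop-helix factor, had 3.72 kb in 236L and 4.78 kb in 236R, against 19.8 kb in 159-1 and 22.5 kb in 1014. Sfrp2, a secreted inhibitor of Wnt signalling, had 3.39 kb in 236L and 1.32 kb in 236R, against 19.9 kb in 159-1 and 27.1 kb in 1014.

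Stretches marked in both control lines alone lay on 621 runs of bins at equal length, against 503 runs for the mutant lines alone. The largest control-only runs lay at Rhcg, an ammonium transporter gene, with 22 bins, and at Rph3a and Ebf3 with 19 bins each, followed by a run 130 kb from Bmp7, 1 over Kif7 and Plin1 and 1 over the microRNA gene Mir9-3. The runs at Rhcg, at Kif7 and Plin1 and at Mir9-3 are neighbours on chromosome 7, between bases 79496001 and 79728000. The largest mutant-only runs were shorter. They lay at the aquaporin genes Aqp2 and Aqp5 with 9 bins, and at Plch2, Wscd2, Islr2 and Igdcc3 with 8 bins each. At Islr2 all 8 kb were under peaks in both mutant lines and none in the control lines even at full length, and the Plch2 run also had 0 kb in both control lines. The other 3 runs were marked in control lines at full length. The run at the aquaporins carried 7.13 kb in 159-1 and 15.1 kb in 1014, which trimming removed. The Wscd2 run carried 6.70 kb in 159-1 and 17.4 kb in 1014, against 9.18 kb in 236L and 16.9 kb in 236R. The Igdcc3 run carried 0.270 kb in 159-1 and 9 kb in 1014.

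Sox2 and Neurog3 were among the 53 genes with more H3K27me3 in both mutant lines, against the direction of list length. Sox2, a progenitor and neuroendocrine lineage factor, had 7.48 kb in 236L and 8.26 kb in 236R, against 0 kb in both control lines. Neurog3, the proneural factor of endocrine progenitors in pancreas and gut, had 6.99 kb in 236L and 9.81 kb in 236R, against 0 kb in both control lines. Msi1, an RNA-binding protein of neural progenitors, had the largest separation in kb, with 25.5 kb in 236L and 31.0 kb in 236R, against 0 kb in both. Bcor, an X-linked subunit of a variant Polycomb complex, had 13.5 kb in 236L and 18.7 kb in 236R, and Islr2, a neuronal membrane protein, 8.53 kb in 236L and 8.83 kb in 236R, both against 0 kb in the control lines. Each of these 5 genes was marked to a like extent in the 2 mutant lines, and none had a peak in a control line. At q up to 0.001 the difference of group means fell to 3.89 kb for Msi1, against 28.3 kb with all peaks, to 3.56 kb for Sox2, against 7.87 kb, and to 4.07 kb for Neurog3, against 8.40 kb, and Neurog3 was then not called. The neighbours Pyy and Ppy, which encode peptide YY and pancreatic polypeptide, were both among the 53. Pyy had 12.0 kb in 236L and 11.0 kb in 236R, against 1.08 kb in 159-1 and 0.591 kb in 1014, and Ppy had 13.6 kb in 236L and 11.8 kb in 236R, against 1.59 kb in 159-1 and 4.69 kb in 1014. Cck, the cholecystokinin gene, had 2.79 kb in 236L and 4.00 kb in 236R, against 0 kb in 159-1 and 0.783 kb in 1014.

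Signalling genes with more of the mark included Wnt4, Wnt3 and Erbb2. Wnt4, a secreted Wnt ligand, had 8.75 kb in 236L and 11.5 kb in 236R, against 2.06 kb in 159-1 and 5.71 kb in 1014. Wnt3, another ligand, had 19.3 kb in 236L and 2.73 kb in 236R, against 0 kb in both control lines. Erbb2, a receptor tyrosine kinase, had 5.90 kb in 236L and 15.1 kb in 236R, against 0 kb in both control lines. Its neighbours Ppp1r1b, Stard3 and Pgap3 were called too and share 1 locus with it. Of 44 Wnt and BMP signalling genes, 2 (4.55%) had more and 11 (25%) had less at full length, beside 0.425% and 6.43% of all genes. At equal length 8 (18.2%) had more and 7 (15.9%) had less, beside 0.877% and 1.45% of all genes. The balance of this list thus turned with trimming to the length of 236L. Without 236L and at the length of 236R, 4 had more and 12 had less, beside 1148 and 672 of all 21887 genes. Bmp4, a growth factor of the BMP family, was less at full and at equal length, with 8.85 kb in 236L and 9.74 kb in 236R, against 14.03 kb in 159-1 and 21.4 kb in 1014.

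The promoters of Wnt3 and Erbb2 were wholly under H3K27me3 peaks in both mutant lines and free of them in both control lines at either length. The Sox2 promoter was wholly covered in 236L and over a fraction of 0.267 in 236R, against none in both control lines. These 3 promoters are shown in the same way, with every CG in capitals, beside those of Gata3 and Ebf3 that showed the opposite pattern.
Sox2, chr3:34649745-34650044, plus strand: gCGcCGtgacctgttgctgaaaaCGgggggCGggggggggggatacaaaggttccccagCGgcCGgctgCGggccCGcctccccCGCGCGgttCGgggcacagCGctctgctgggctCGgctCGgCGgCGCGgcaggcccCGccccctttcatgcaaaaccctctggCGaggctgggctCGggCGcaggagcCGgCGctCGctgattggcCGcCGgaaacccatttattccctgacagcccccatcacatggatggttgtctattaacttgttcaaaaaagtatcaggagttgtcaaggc
Wnt3, chr11:103773925-103774224, plus strand: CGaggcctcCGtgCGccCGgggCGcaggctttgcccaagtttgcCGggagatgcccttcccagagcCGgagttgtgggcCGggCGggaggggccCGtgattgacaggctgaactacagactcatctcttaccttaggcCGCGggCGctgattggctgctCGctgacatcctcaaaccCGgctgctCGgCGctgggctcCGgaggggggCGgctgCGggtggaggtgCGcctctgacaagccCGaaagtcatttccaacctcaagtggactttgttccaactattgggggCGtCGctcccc
Erbb2, chr11:98412234-98412533, plus strand: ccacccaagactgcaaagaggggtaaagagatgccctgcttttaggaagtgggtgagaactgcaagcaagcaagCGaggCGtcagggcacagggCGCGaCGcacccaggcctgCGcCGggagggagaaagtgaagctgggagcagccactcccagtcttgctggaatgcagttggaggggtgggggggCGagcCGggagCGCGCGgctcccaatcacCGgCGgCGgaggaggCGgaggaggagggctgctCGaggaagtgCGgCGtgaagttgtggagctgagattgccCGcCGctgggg
They hold 27, 24 and 21 CG dinucleotides. Across all matched promoters at equal length, 73 were under the mark in the mutant lines alone, with a median of 20 CG, and 72 in the control lines alone, with a median of 22, so promoters of either pattern were richer in CG than the median promoter with 13. The 157 promoters under the mark in all 4 lines had a median of 20 as well, so this richness was not particular to either pattern. At full length the medians were 19 for 35 mutant-only and 11 for 353 control-only promoters. Trimming thus decides which promoters count as mutant-only. Some of the 73, such as those of Gata5 and Robo3, were wholly under peaks in both control lines at full length. Others, such as those of Wnt3 and Erbb2, were free of them there.

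H3K4me2 moved opposite to H3K27me3 at many of the genes called at both lengths. Of the 293 genes with less H3K27me3, 76 (25.9%) had at least 2 kb more H3K4me2 in both mutant lines, a call that 1.36% of all genes had and 4.08% of the 6024 genes with at least 2 kb of H3K27me3 in a line. A drop in H3K4me2 was called at 2 of the 293 (6.37% of all genes had one). Of the 53 genes with more H3K27me3, 15 (28.3%) had at least 2 kb less H3K4me2 and none had more. The share of opposite calls at genes with less H3K27me3 was 32.4% without 236L, 46.4% without 236R, 20.8% without 159-1 and 21.1% without 1014, beside 2.66, 10.3, 2.14 and 2.09% of all genes. For genes with more H3K27me3, the share was 15.1% without 236L beside 9.65% of all genes, and it was 46.2%, 26.6% and 30.2% without 236R, 159-1 and 1014, beside 11.5, 9.18 and 9.65% of all genes. At the same 293 and 53 genes H3K4me1, a mark of enhancers, was more at 74 (25.3%, beside 5.3% of all genes) of the first and less at 22 (41.5%, beside 7.45% of all genes) of the second. All 3 marks come from the same 4 lines, so a difference between cultures enters each.

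Gata3 had 11.0 kb of H3K4me2 in 236L and 12.2 kb in 236R, against 1.30 kb in 159-1 and 2.44 kb in 1014. Hoxd13 had 9.51 kb of H3K4me2 in 236L and 8.44 kb in 236R, against 1.14 kb in 159-1 and 0 kb in 1014. Pitx1 had 6.05 kb in 236L and 6.82 kb in 236R, against 0 kb in 159-1 and 0.630 kb in 1014. In the other direction, Sox2 had 4.67 kb of H3K4me2 in 236L and 4.73 kb in 236R, against 11.8 kb in 159-1 and 11.0 kb in 1014. Neurog3 had 2.87 kb in 236L and 4.98 kb in 236R, against 8.99 kb in 159-1 and 10.3 kb in 1014. The windows of all 5 genes held both H3K4me2 and H3K27me3 in both mutant lines.

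**Figure D4:**
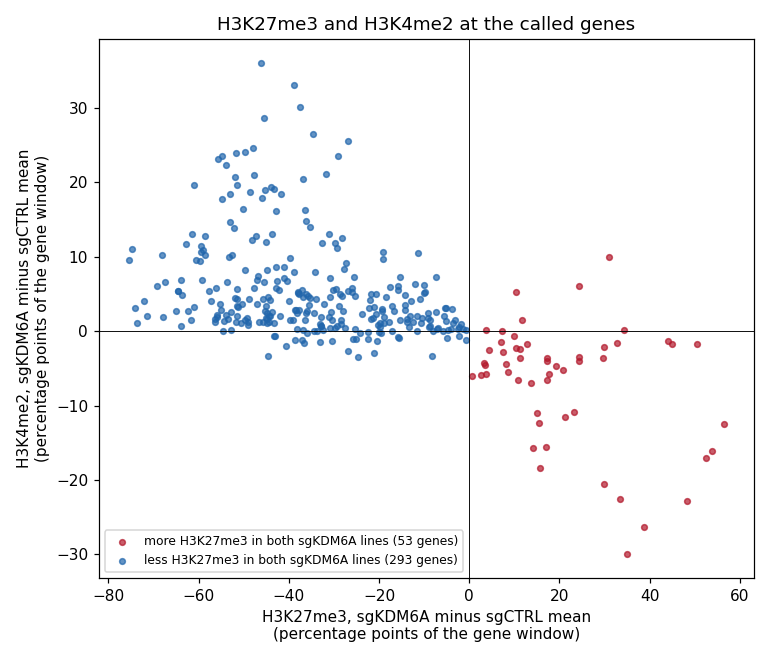
Each point is a gene called at both lengths, placed by the difference of group means (mutant minus control, in percentage points of the gene window) for H3K27me3 on the x axis and H3K4me2 on the y axis. Most genes with less H3K27me3 (left) lie above 0 in H3K4me2, and most genes with more (right) lie below.

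The Hox clusters show that H3K4me2 could appear while H3K27me3 stayed. Over the Hoxa windows H3K4me2 covered 34.1% in 236L and 28.8% in 236R, against 2.74% in 159-1 and 1.43% in 1014, although H3K27me3 covered 73.7% or more in each line. At Hoxa9, a gene of the posterior part of that cluster, H3K4me2 was 11.4 kb in 236L and 8.70 kb in 236R, against 0.620 kb in 159-1 and 0.571 kb in 1014, with H3K27me3 at 21.3 kb in 236L and 23.3 kb in 236R, against 23.5 kb in 159-1 and 24.3 kb in 1014. Hoxc had 20.8% of the window under H3K4me2 in 236L and 17.6% in 236R, against 1.41% in 159-1 and 3.25% in 1014. Hoxd, where H3K27me3 fell, had 25.7% in 236L and 25.5% in 236R, against 3.61% in 159-1 and 1.87% in 1014. Hoxb was the cluster under wide H3K4me2 in the control lines, with 30.3% in 236L and 71.9% in 236R, against 67.7% in 159-1 and 61.9% in 1014, so there H3K4me2 was low in 236L alone.

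**Figure D5:**
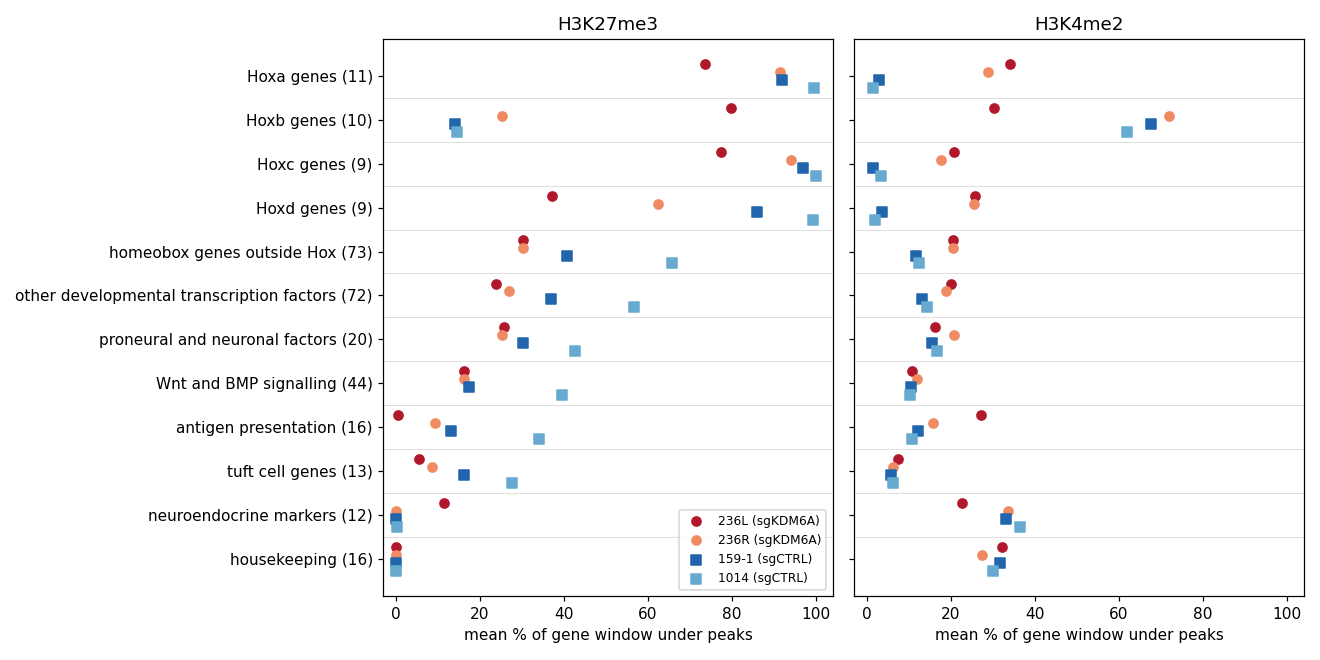
Points give the mean percent of the gene window under H3K27me3 (left) and H3K4me2 (right) for 12 gene lists, with the number of genes in brackets, in the mutant lines 236L and 236R (circles) and the control lines 159-1 and 1014 (squares). For Hoxa, Hoxc and Hoxd the mutant lines lie above the control lines in H3K4me2, and neuroendocrine markers hold H3K27me3 in 236L.

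KDM6A itself was mapped in the 2 control lines, which allows its sites to be set beside the change in H3K27me3. Of 16297 bins with KDM6A in both control lines, H3K27me3 marked 8.88% in 236L and 1.56% in 236R, against 1.50% in 159-1 and 3.001% in 1014, so a higher share in the mutant lines was seen in 236L alone. Among the 15789 of these bins without H3K27me3 in either control line, 52 (0.329%) were marked in both mutant lines at full length, against 53 of 36975 bins (0.143%) with H3K4me2 but no KDM6A in the control lines. At equal length the shares were 0.299% and 0.272%. At full length 1163 of the 15789 KDM6A bins were marked in 236L and 94 in 236R, against 727 and 188 of the 36975 bins without KDM6A. Few bins of either kind were marked in both mutant lines, and an effect of KDM6A loss at its sites was not tested. Of the 53 genes with more H3K27me3, 42 (79.2%) had at least 1 kb of KDM6A in both control lines, as did 23.9% of the 293 with less and 40.9% of all genes. Without 236L the share was 47.9% of the 219 genes with more in 236R than in both control lines, so the high value rested on 236L. Without 236R, 159-1 and 1014 it was 85.3%, 78.1% and 69.8%.

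Of 20 proneural and neuronal factors, 5 (25%, beside 6.43% of all genes) had less and 1 had more at full length, and 2 (10.0%, beside 1.45%) and 1 at equal length. The shares over all genes, here and for the lists that follow, include the many genes without a peak in any line. They are therefore a low baseline for lists of marked genes. Neurod1, which marks a second neuroendocrine subtype, had 0.461 kb in 236L and 0 kb in 236R, against 5.20 kb in 159-1 and 13.99 kb in 1014, a call that was lost at equal length. Neurog2, a proneural factor of the cortex, was less at both, with 6.93 kb in 236L and 1.94 kb in 236R, against 13.96 kb in 159-1 and 22.9 kb in 1014. Of 13 tuft cell genes 4 (30.8%, beside 6.43% of all genes) had less at full length and 1 (7.69%, beside 1.45%) at equal length. Pou2f3, the tuft cell master regulator, had 8.22 kb in 236L and 38.2 kb in 236R, against 63.3 kb in 159-1 and 93.2 kb in 1014. At equal length it had 8.22 kb in 236L and 27.3 kb in 236R, against 16.2 kb in 159-1 and 0 kb in 1014, and was not called.

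Some antigen presentation genes had less H3K27me3 in both mutant lines at full length. Of 16 genes, 5 had less at full length, (31.2%, beside 6.43% of all genes) and the same number without 236L, and none at equal length. Without 236L and at the length of 236R, 4 had less and 1 had more, beside 672 and 1148 of all 21887 genes. Tap1, a peptide transporter subunit, had no H3K27me3 in either mutant line, against 7.05 kb in 159-1 and 22.9 kb in 1014. Psmb8 and Psmb9, immunoproteasome subunits, and Tap2 lie in the same locus. Nlrc5, the transactivator of class I genes, had none in either mutant line, against 10.4 kb in 159-1 and 61.4 kb in 1014. At equal length Tap1 had 0 kb in both mutant lines, against 0.656 kb in 159-1 and 0 kb in 1014. H3K4me2 at Tap1 was 12.4 kb in 236L and 9.87 kb in 236R, against 5.94 kb in 159-1 and 5.51 kb in 1014.

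Among 28 Notch, YAP and mesenchymal genes, 6 (21.4%, beside 6.43% of all genes) had less at full length and 3 (10.7%, beside 1.45%) at equal length, and Hes5, a Notch target, had more at equal length alone. Wwtr1, the YAP partner TAZ, was less at both, with 0 kb in 236L and 1.53 kb in 236R, against 5.93 kb in 159-1 and 16.6 kb in 1014. Vim, the intermediate filament of mesenchymal cells, had 0 kb in 236L and 0.978 kb in 236R, against 4.20 kb in 159-1 and 7.98 kb in 1014, at full length only. None of the 30 PRC2 and PRC1 subunit genes, the 17 Kdm6 and H3K4 methyltransferase genes or the 10 cell cycle inhibitors and engineered loci was called at full length. The 16 housekeeping genes were essentially free of H3K27me3, with 0.264 kb summed over all of them in 1014 and 0 kb in the other lines.

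Mir10b, a microRNA gene of the Hoxd cluster, had less H3K27me3 in both mutant lines at both lengths. Of 1005 microRNA hairpins with 10 kb on each side, 48 (4.78%) had at least 2 kb less in both mutant lines at full length and 4 (0.398%) had more, and 12 (1.19%) and 2 (0.199%) did at equal length. Mir10a and Mir10b are paralogues in the Hoxb and Hoxd clusters, and their 5p products share the seed, bases 2 to 8, which is in capitals (RefSeq, GRCm38.p6).
mmu-miR-10a-5p, chr11:96317186-96317208, plus strand: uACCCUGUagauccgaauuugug
mmu-miR-10b-5p, chr2:74726074-74726096, plus strand: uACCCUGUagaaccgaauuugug
Counted from the 5′ end of miR-10a-5p they differ at U12A. H3K27me3 around Mir10a was 17.4 kb in 236L and 3.30 kb in 236R, against 0 kb in both control lines, a call that was lost at equal length since 236R then had 0 kb. Mir196a-1, also in the Hoxb cluster, was not called at either length, with 15.4 kb in 236L and 11.6 kb in 236R, against 14.7 kb in 159-1 and 15.9 kb in 1014. Around Mir10b it was 5.33 kb in 236L and 15.0 kb in 236R, against 18.7 kb in 159-1 and 20.1 kb in 1014, and it was less at both lengths. Mir9-1 and Mir9-3, neural microRNA genes at separate loci, were less at both lengths as well. Mir9-3 had 6.93 kb in 236L and 0.576 kb in 236R, against 18.96 kb in 159-1 and 20.1 kb in 1014. Mir9-1 had 10.4 kb in 236L and 4.67 kb in 236R, against 20.0 kb in 159-1 and 20.1 kb in 1014.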

How the data were processed

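Each of the 4 H3K27me3 libraries has 1 broad peak list. Reads were aligned with Bowtie2 2.4.2 to mm10 and peaks called with MACS3 3.0.0a7, per the submitters' processing notes; for the calling threshold, control track and duplicates the sources used here give nothing. Per peak the authors deposited a score, a fold enrichment (ratio), a −log10 p-value and a −log10 q-value, used here to order or threshold the peaks of one list. Peaks on contigs were left out and the rest merged. Cover was measured in bins of 1 kb, in gene windows and at gene ends, with gene positions, promoters and microRNAs from RefSeq tables of GRCm38.p6, the assembly of mm10. The gene table has no strand. The code (Python 3.11.15, numpy 2.4.6, pandas 2.3.3, scipy 1.17.1) recovered planted differences when tested on simulated data.

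The members and the 22 gene lists (442 of 446 entries matched) were chosen with earlier results of these data known. Genes named are those with the largest separation per direction, 10 per ranking by kb and by percent of the window, and within lists the largest 6 or all of 12 or fewer. Other genes named, the promoters shown, the genes of 236L, the Hox microRNAs and the examples of opposite H3K4me2 were chosen after their values were seen. H3K4me2 and KDM6A lists were read in the same way. Results for some genes are not reported here.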

Additional observations from a re-analysis of the deposited data

How the results depend on the processing

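Total cover kept its direction under every setting tried: the difference was -21.5 Mb at q up to 0.001, -56.2 Mb on autosomes, -54.3 Mb without chromosome 19, and between -88.1 and -23.2 Mb leaving out a line. The counts of genes and bins moved with most settings, and genes with less outnumbered genes with more in each setting given below except equal length without 236L. Genes with more and with less numbered 10 and 585 at q up to 0.001, 192 and 318 at equal length by column 8, 197 and 300 by column 7, 466 and 2660 at any separation, 25 and 771 at 5 kb, 39 and 819 at 10 percentage points, and 239 and 2702 with 50 kb each side. At equal length without 236L, added after seeing the data, they numbered 1148 and 672. Mutant-only and control-only bins numbered 33 and 4002 at q up to 0.001, 889 and 2022 at equal length by column 8, 826 and 1971 by column 7, 1045 and 33217 at any cover, 210 and 12437 at 90% cover, 51 and 3437 with bins of 5 kb, and 14347 and 6984 at equal length without 236L. Leaving out a line gave 103 to 880 genes with more, 1529 to 3698 with less, 567 to 8178 mutant-only and 21047 to 84208 control-only bins. No paired analysis was possible because the labels number no replicates across groups. Limits: 2 cultures a group, no read counts, and trimming that equalises length but not peak width.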
